A study of Mus musculus with 8 samples.

Results

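The 8 genes described here make cholesterol or control its making: Hmgcs1, Idi1, Fdft1, Sqle, Lss and Cyp51, which are enzymes, and Srebf2 and Insig1, which regulate them. They were chosen by name, with no measured value in the rule, though earlier results of these data were known. All 8 were found among the 25141 gene names tested, through 11 probes, 10 of which passed the filter on dim probes. They were measured in white adipose tissue of 5-week-old mice of a 129 × C57BL/6 strain on a regular chow diet, with 4 wild-type samples (WT) and 4 samples called Ad/NICD, from mice that overexpress the intracellular domain of Notch1, the signalling fragment of that receptor. The labels name the 4 samples of each group biological replicates. The depot, the sex of the animals, the promoter that drives the transgene and any pooling of animals are not stated by the sources at hand.

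Cholesterol is built in the cytosol and the endoplasmic reticulum from acetyl-CoA, through mevalonate, isoprenoid units, squalene and lanosterol. SREBP2, the product of Srebf2, is a transcription factor held in the endoplasmic reticulum membrane by the escort protein SCAP and the INSIG proteins while sterols are plentiful. When sterols run low it is carried to the Golgi, cut free, and switches on the enzymes of the route together with genes of cholesterol uptake. White fat cells make little cholesterol, take up most of theirs, and store much of it unesterified with the lipid droplet. The related factor SREBP1 acts mainly on genes of fatty acid synthesis, which is where the comparison at the end of these results comes from.

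Each of the 4 arrays carried 1 WT and 1 Ad/NICD sample of the same replicate number, in 2 colours. Values are log2 ratios within an array, Ad/NICD over WT, with green (Cy3) taken as WT and red (Cy5) as Ad/NICD. This direction is the likely one: the authors' value table holds green under WT and red under Ad/NICD, and the labelling protocol gives Cy3 to controls. The dye tags of the samples state the opposite, which would turn every sign below and exchange the genotype of each level. No array had its dyes exchanged, so a dye bias of a probe and the genotype cannot be told apart. Levels are log2 signals of 1 channel after loess and scaling of arrays; probes differ in brightness, so levels are compared within a gene only.

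Between 58.1% and 68.6% of the spots of a channel exceeded background clearly, and with 4 arrays precision is limited. The pair of replicate 4 stood apart: the Y-linked genes Ddx3y and Eif2s3y were at 9.55 to 10.94 in both of its samples and 5.75 to 6.06 in the 6 others, while Xist was at 5.87 and 6.12 there and at 10.15 to 10.45 elsewhere. Keratin and epithelial markers were also low in that pair. The log2 of their summed signals was 9.90 in its WT and 10.08 in its Ad/NICD sample, against 13.47 to 14.85 in the other 6. Skeletal muscle markers were high in it, at 17.13 in WT and 13.12 in Ad/NICD, against 11.33 to 13.37 in the other WT and 10.30 to 10.85 in the other Ad/NICD samples. The median log2 ratio of the 8 genes without replicate 4 is given below with their counts.

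Promoter sequence is shown for 3 of the 8 genes, since SREBP2 is known to act through short elements in promoters: Hmgcs1, the 1 gene of 6 matched with the full sterol element core, Srebf2, and Insig1, the gene with the lowest mean ratio. RefSeq windows (GRCm38.p6) were matched for 6 of the 8, and Sqle and Fdft1 were not matched. The 250 bases before each start site were searched on both strands for the sterol regulatory element core TCACNCCAC, for that core without its last letter (TCACNCCA, a search added after the first result was seen, which the full core contains), for the CCAAT box (CCAAT) and for the GC box (GGGCGG). Capitals mark a match on either strand; the sequences read 5′ to 3′ on the strand of the gene.
Hmgcs1 (chr13:119690101-119690350, forward strand): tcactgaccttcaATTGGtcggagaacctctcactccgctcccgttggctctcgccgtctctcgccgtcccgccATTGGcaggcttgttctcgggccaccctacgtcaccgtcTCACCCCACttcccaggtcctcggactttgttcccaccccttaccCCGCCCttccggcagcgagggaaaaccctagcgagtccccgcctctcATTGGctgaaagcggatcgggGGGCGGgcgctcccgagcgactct
Srebf2 (chr15:82147019-82147268, forward strand): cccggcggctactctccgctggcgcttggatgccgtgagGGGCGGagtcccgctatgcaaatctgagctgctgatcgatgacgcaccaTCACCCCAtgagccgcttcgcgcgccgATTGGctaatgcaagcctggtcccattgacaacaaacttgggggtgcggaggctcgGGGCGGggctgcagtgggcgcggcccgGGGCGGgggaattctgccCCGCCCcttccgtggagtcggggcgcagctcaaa
Insig1 (chr5:28071162-28071411, forward strand): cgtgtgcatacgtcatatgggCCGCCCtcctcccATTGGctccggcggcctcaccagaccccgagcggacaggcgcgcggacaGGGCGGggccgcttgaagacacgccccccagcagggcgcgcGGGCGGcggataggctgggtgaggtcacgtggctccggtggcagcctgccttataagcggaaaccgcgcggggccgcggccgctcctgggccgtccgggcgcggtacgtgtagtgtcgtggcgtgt
The full core lay 137 to 129 bases before the Hmgcs1 start and in none of the other 5 windows, and it was found in 1.05% of the 32851 promoter windows of the table. The shorter core lay in the windows of Hmgcs1 and Srebf2, 2 of 6, against 3.67% of all windows. A CCAAT box lay in 6 of 6 windows, against 33.8% of all, and a GC box in 6 of 6, against 32.7%. A match is a description of the letters, not of binding.

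Of the 8 genes, 0 passed the threshold of 0.05 on the adjusted p of limma over all gene names tested, where 12 gene names did (7 higher and 5 lower, 0.0477% of those tested; 7 and 10 with a smaller normexp offset of 16; 9 and 34 without replicate 4, and 0 without any 1 of the others). When channels were fitted separately, 0 of the 8 passed either with arrays as random blocks (2.00% of gene names called) or with no block (1.03% called). At an unadjusted p under 0.05, 2 of 8 were lower, Insig1 and Fdft1, and 0 were higher, where 8.97% of all gene names were lower, 6.26% higher and 15.2% either. The mean ratio lay below 0 for 7 of 8, against 51.6% of all gene names, and 6 of 8 were below 0 on at least 3 arrays, against 38.2%. The 95% interval included 0 for 6 of 8. The median over the 8 was -0.10, where the median of all gene names was -0.0059. Without replicate 2 it was -0.025, without replicate 4 -0.11, and without replicates 1 and 3 in turn -0.14 and -0.15. For none of the 8 did the mean reach 2-fold.

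Insig1, which encodes a membrane protein that holds SCAP and the SREBPs in the endoplasmic reticulum and is itself an SREBP target, had the lowest mean of the 8. Its levels were 8.41, 9.28, 8.63 and 9.33 in WT replicates 1 to 4 and 8.42, 7.94, 8.14 and 8.30 in the Ad/NICD samples. WT replicates 2 and 4 were high, and the groups overlapped only through the 2 nearly equal samples of replicate 1. The ratios were 0.0074, -1.34, -0.48 and -1.02, with a mean of -0.71 ± 0.23 (SE, n = 4 arrays), a 95% interval of -1.29 to -0.12 and an adjusted p of 0.259 in limma. The array of replicate 1 was level and the other 3 were below 0. The mean was -0.95 without replicate 1 and -0.50 without replicate 2.

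Srebf2, which encodes SREBP2, had levels of 8.95, 8.95, 9.02 and 9.30 in WT and 9.30, 9.03, 9.15 and 9.07 in Ad/NICD. The groups overlapped, and the highest samples, nearly equal, were WT replicate 4 and Ad/NICD replicate 1. Its ratios were 0.35, 0.079, 0.13 and -0.23, with a mean of 0.082 ± 0.10, an interval of -0.18 to 0.35 and an adjusted p of 0.758. It was the 1 gene of the 8 with a mean above 0, which was 0.18 without replicate 4, a sign that turned without replicate 1 (-0.0066) and when arrays were median-centred in place of loess (-0.41). That centring took the median of all gene names to -0.32, and Srebf2 lay -0.091 from it. A second, dimmer Srebf2 probe had a mean of 0.12 and was below 0 on the arrays of replicates 1 and 3.

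**Figure D1:**
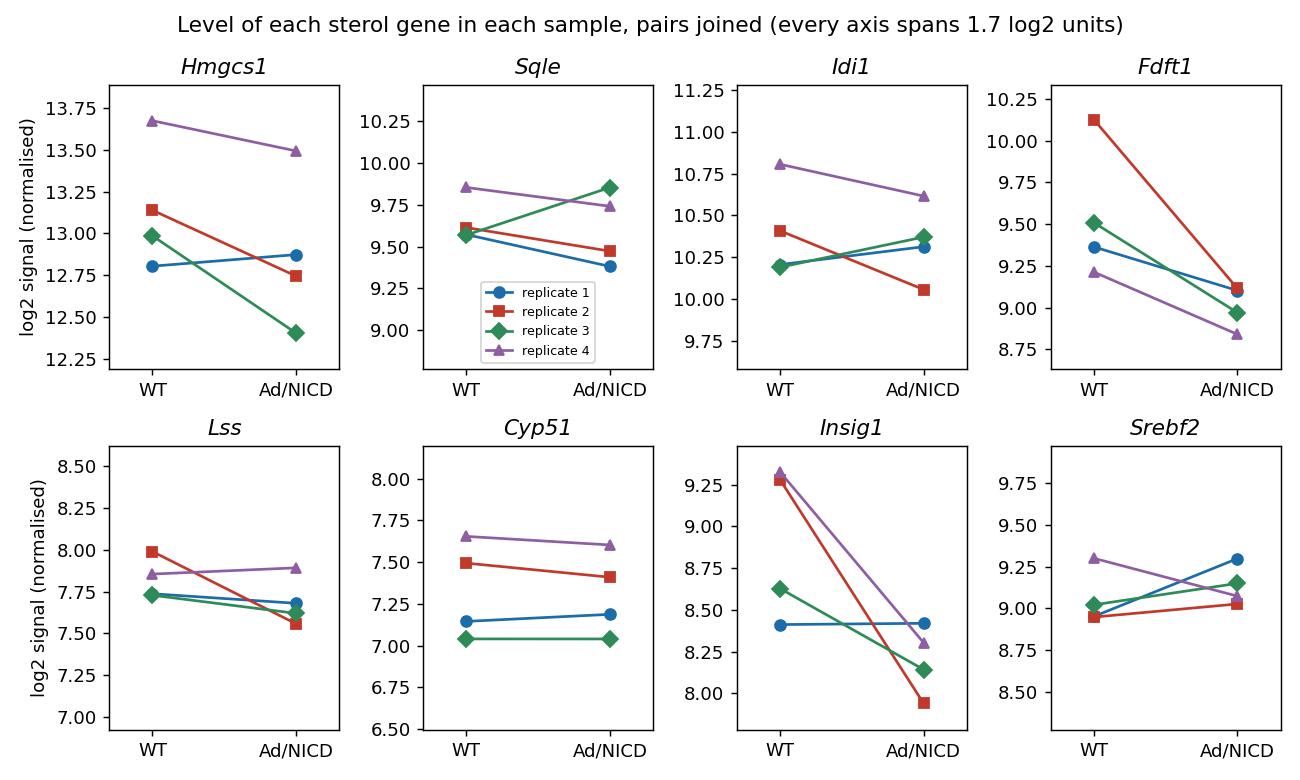
Normalised log2 signal of each of the 8 genes (vertical axis, each spanning 1.7 log2 units) in WT and Ad/NICD samples (horizontal axis), with a line joining the samples that shared an array. The 4 lines of Fdft1 all run downward, those of Cyp51 are nearly flat at 4 separate heights, and 3 of 4 run downward for Insig1.

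Hmgcs1 encodes the cytosolic HMG-CoA synthase, an early enzyme of the route that uses acetoacetyl-CoA. Its levels were 12.80, 13.14, 12.98 and 13.67 in WT and 12.87, 12.74, 12.40 and 13.49 in Ad/NICD. Both samples of replicate 4 stood above the 6 others, and the groups overlapped. The ratios were 0.069, -0.39, -0.58 and -0.18, below 0 on 3 of 4 arrays, with a mean of -0.27 ± 0.12, an interval of -0.57 to 0.030 and an adjusted p of 0.370. The mean was -0.17 without replicate 3. The other Hmgcs1 probe was not kept, being well above background in 1 of 8 samples.

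Idi1 encodes the isomerase that interconverts the isoprenoid building blocks. Its levels were 10.21, 10.41, 10.19 and 10.81 in WT and 10.31, 10.06, 10.37 and 10.62 in Ad/NICD, and the ratios were 0.11, -0.35, 0.18 and -0.19. The arrays divided evenly by sign, and the mean of -0.064 ± 0.11 had an interval of -0.34 to 0.21 and an adjusted p of 0.824. The mean was -0.15 without replicate 3, and its sign turned without replicate 2 (0.032), with the scanner's processed signals (0.072) and in the authors' value table (0.063).

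Fdft1 encodes squalene synthase, the first enzyme committed to sterols. It was at 9.36, 10.13, 9.51 and 9.21 in WT and at 9.10, 9.11, 8.97 and 8.84 in Ad/NICD, so every WT sample lay above every Ad/NICD sample. This held for 1 of the 8 genes and for 5.60% of all gene names. The ratios were -0.26, -1.01, -0.54 and -0.37, below 0 on 4 of 4 arrays, as for 13.3% of all gene names. The mean was -0.55 ± 0.14, a fold of 0.685, with an interval of -0.89 to -0.20 and an adjusted p of 0.186. The second Fdft1 probe was dim, well above background in 2 WT and 2 Ad/NICD samples, and had a mean of -0.096, also below 0 on 4 of 4 arrays. Adding the normexp offset of 50 to both channels shrinks the ratio of a dim probe. With both probes averaged Fdft1 had -0.32. Over the 14 alternative settings its mean ran from -1.05 to -0.32 and its adjusted p from 0.0776 to 0.604.

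Sqle encodes squalene epoxidase, a rate-limiting step of the later route. Its levels were 9.57, 9.61, 9.57 and 9.85 in WT and 9.38, 9.47, 9.85 and 9.74 in Ad/NICD. The groups overlapped, and the 2 highest samples were WT replicate 4 and Ad/NICD replicate 3. The ratios were -0.19, -0.14, 0.28 and -0.11, with a mean of -0.040 ± 0.099, an interval of -0.29 to 0.21 and an adjusted p of 0.883, with means of 0.010 without replicate 1 and -0.15 without replicate 3. Lss encodes lanosterol synthase, which closes the rings. It was at 7.74, 7.99, 7.73 and 7.85 in WT and 7.68, 7.56, 7.62 and 7.89 in Ad/NICD. Its ratios were -0.057, -0.43, -0.11 and 0.037, with a mean of -0.14 ± 0.095, an interval of -0.38 to 0.0995 and an adjusted p of 0.543. The Lss mean was -0.043 without replicate 2 and -0.22 with the scanner's processed signals.

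Cyp51 encodes lanosterol 14-alpha-demethylase. It showed the smallest mean of the 8 and the narrowest interval. The levels were 7.15, 7.49, 7.04 and 7.65 in WT and 7.19, 7.41, 7.04 and 7.60 in Ad/NICD, so that samples of a pair lay close together and the pairs lay apart. The ratios were 0.042, -0.084, -0.00027 and -0.051, and the mean was -0.023 ± 0.059, with an interval of -0.17 to 0.13 and an adjusted p of 0.885. Its signal was the dimmest of the 8, though well above background in all 8 samples, and the offset of 50 makes such intervals narrow; with an offset of 16 the mean was -0.015 and with the scanner's processed signals -0.025.

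Several of the 8 genes were high or low in the same samples. Centred on each gene's own mean, their mean level was -0.10, 0.25, -0.045 and 0.33 in WT replicates 1 to 4 and -0.097, -0.21, -0.18 and 0.067 in Ad/NICD. WT replicates 2 and 4 were the high samples and Ad/NICD replicates 2 and 3 the low ones. WT replicate 4 was the highest of all samples for 6 of the 8 genes; for Fdft1 and Lss WT replicate 2 was. WT replicate 4 was also the sample with the highest muscle marker sum, whose part in the sterol levels was not tested. The mean of the 2 samples of a pair was highest in replicate 4 for 7 of 8, Fdft1 being the exception, where it was lowest. For 7 of 8 the range of pair means was wider than the mean ratio, Insig1 being the exception (0.43 against -0.71). A range and a mean are unlike measures. Range against range, pair means spread wider than ratios for Hmgcs1 (0.89 against 0.65) and Cyp51 (0.59 against 0.13). Pair means spread less than ratios for Sqle (0.32 against 0.48), Idi1 (0.48 against 0.53) and Fdft1 (0.59 against 0.75). The same held for Lss (0.20 against 0.47), Insig1 (0.43 against 1.35) and Srebf2 (0.20 against 0.57). The ratio was lowest on the array of replicate 2 for 5 of 8 and highest on that of replicate 1 for 5 of 8. For the counts in this paragraph the share over all gene names was not computed. They describe the 8 genes and are not read as particular to them. Because paired samples were hybridised together, these 8 values are not independent, and no correlation is given.

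**Figure D2:**
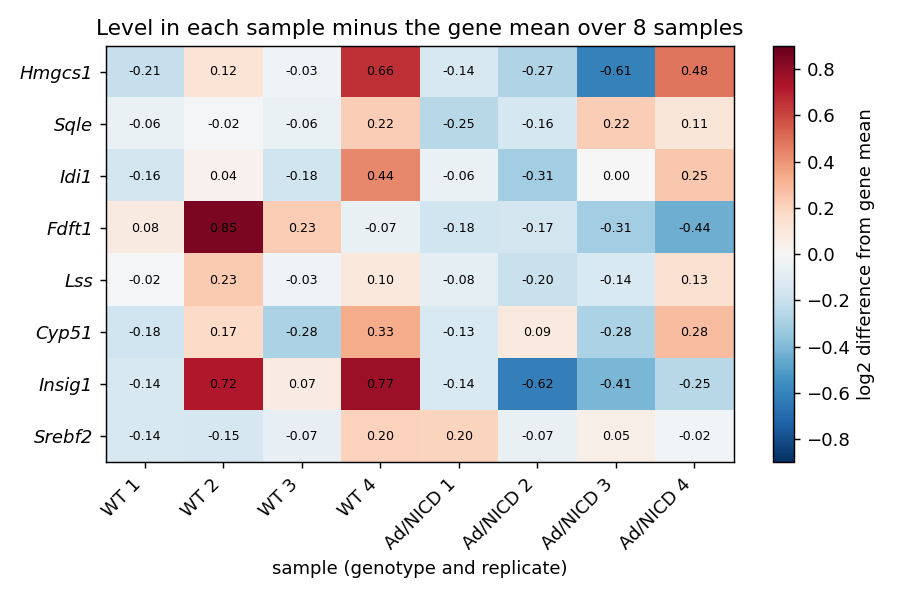
Level of each gene (rows) in each sample (columns) minus the mean of that gene over the 8 samples, in log2 units by colour and number. WT replicates 2 and 4 hold most of the high values, with Insig1 at 0.72 and 0.77 and Fdft1 at 0.85 and -0.07, and both samples of replicate 4 are high for Hmgcs1, Idi1 and Cyp51.

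The genes whose centred levels came closest to the mean of the 8 were taken by the root mean square difference over the 8 samples, in log2 units. Among named genes these were Ube2a (0.056), which encodes a ubiquitin-conjugating enzyme, Pmpca (0.062), a subunit of the mitochondrial processing peptidase, and Spg7 (0.062), a protease of the inner mitochondrial membrane. The other two of the closest 5 were transcripts without a RefSeq symbol. The 3 named genes are not genes of sterol synthesis. The 8 genes themselves lay farther from their own mean, from 0.093 for Lss to 0.34 for Fdft1. Taking the closest of all gene names tested favours that order, so it does not show how closely the 8 vary together.

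The other 16 enzymes of the route, taken from a list set by name, were all measured, and 0 passed the threshold in limma. At an unadjusted p under 0.05, where 8.97% of all gene names were lower and 6.26% higher, 2 were lower and 0 higher. Their median ratio was -0.094, with 10 below 0 and 6 above, and per array it was -0.024, -0.22, -0.10 and -0.085 for replicates 1 to 4. Pmvk, phosphomevalonate kinase, had the lowest mean, -0.47 ± 0.16 (adjusted p = 0.276), with ratios of -0.15, -1.01, -0.56 and -0.17. Tm7sf2, a sterol reductase that follows Cyp51, had -0.43 ± 0.16 (adjusted p = 0.293), and every WT sample lay above every Ad/NICD sample. Both had a second kept probe, at -0.53 for Pmvk and -0.42 for Tm7sf2. Without replicate 2 the means were -0.29 for Pmvk and -0.25 for Tm7sf2. Acat2, the cytosolic thiolase that opens the route, had -0.40 ± 0.18, which was -0.17 without replicate 2. Msmo1, a methylsterol oxidase, had the highest mean, 0.15 ± 0.061, above 0 on 4 of 4 arrays as for 11.2% of all gene names. Under median centring Msmo1 had -0.37, which lay -0.047 from the median of all gene names there.

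**Figure D3:**
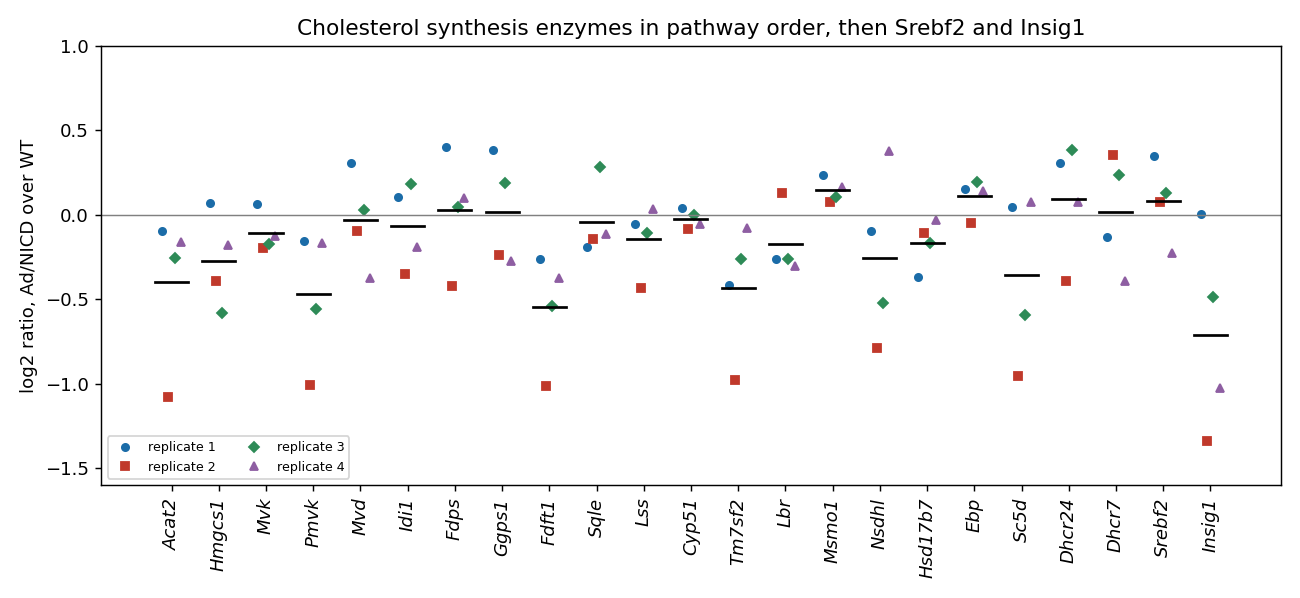
Log2 ratio of Ad/NICD over WT (vertical axis) on each of the 4 arrays for 21 of the 22 enzymes in the order of the route, with Ggps1 as a branch and Lbr beside Tm7sf2, and then for Srebf2 and Insig1; bars are means over the arrays. The lowest bars belong to Insig1 and Fdft1, and the array of replicate 2 gives the lowest points, at -1.34 for Insig1 and -1.08 for Acat2.

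Of 9 other genes that control SREBPs, 0 passed the threshold. At an unadjusted p under 0.05, 3 of the 9 were lower, against 8.97% of all gene names. The median of the 9 was -0.044, with 6 below 0. Scap, the escort protein, had -0.35 ± 0.069 (adjusted p = 0.144). Its levels were 12.44, 12.45, 12.54 and 12.25 in WT and 11.98, 12.05, 12.19 and 12.05 in Ad/NICD, with no overlap and with all 4 ratios below 0. Fitted with arrays as random blocks, its adjusted p was 0.0514. Syvn1, a ubiquitin ligase of the endoplasmic reticulum, had -0.19 ± 0.064. Mbtps1, the protease of the Golgi that makes the first cut in SREBPs, had -0.13 ± 0.062, and -0.038 with its probes averaged. Srebf1, the related factor of fatty acid synthesis, had -0.044 ± 0.21 and ratios of 0.63, -0.69, -0.17 and 0.058, with 0.17 without replicate 2.

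Among 11 measured genes of cholesterol uptake and transport, 0 passed the threshold. At an unadjusted p under 0.05, 2 were higher and 3 lower, against 6.26% and 8.97% of all gene names. Stard4, a known SREBP2 target and a carrier of cholesterol between membranes, was at 8.63, 9.03, 8.53 and 9.35 in WT and 8.84, 9.64, 9.64 and 9.65 in Ad/NICD and had 0.56 ± 0.16 (adjusted p = 0.229), with 0.11 on its dimmer probe and 0.37 without replicate 3. Under median centring Stard4 had 0.076, which lay 0.39 above the median of all gene names there. The 3 lower genes were Npc1, a lysosomal cholesterol exporter, at -0.30 ± 0.089, Scarb1, the HDL receptor, at -0.35 ± 0.11, and Vldlr, the VLDL receptor, at -0.43 ± 0.14, which was -0.28 without replicate 2.

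Of 13 genes of sterol storage, sensing and efflux, 0 passed the threshold in limma's ratio fit, with a median of -0.10 and 9 below 0. At an unadjusted p under 0.05, 3 were lower and 1 higher, against 8.97% and 6.26% of all gene names. Nr1h2, the oxysterol receptor LXR-beta, was at 12.85, 12.98, 12.98 and 12.91 in WT and 12.40, 12.57, 12.56 and 12.63 in Ad/NICD, a mean of -0.39 ± 0.062 with an adjusted p of 0.129. It was the 1 gene among those named here to pass once channels were fitted separately, where the adjusted p was 0.0258 with random array blocks and 0.0473 with none. Over the 14 settings its adjusted p ran from 0.0258 to 0.569. Mylip, a ubiquitin ligase induced by LXR, had -0.32 ± 0.075. Every WT sample lay above every Ad/NICD sample for it, as for 5.60% of all gene names. A second, dimmer Mylip probe had a mean of -0.11, with 0.013 and 0.026 on the arrays of replicates 2 and 4. Nceh1, a cholesterol ester hydrolase, had -0.36 ± 0.14. Apoe, the lipid carrier made by fat cells and macrophages, had 0.60 ± 0.21 and ratios of 0.18, 0.60, 0.26 and 1.36, with 0.35 without replicate 4. Each Ad/NICD sample lay above each WT sample for Apoe, as for 4.23% of all gene names. The mean was 0.33 with the scanner's processed signals and 0.31 in the authors' value table. The summed level of the 10 macrophage markers differed by -0.57, 0.34, -0.20 and 0.54 on the 4 arrays, and its part in the Apoe value was not tested.

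The 8 sterol genes were then set beside 22 genes of fatty acid synthesis, all measured. Of these, 0 passed the threshold in limma. At an unadjusted p under 0.05, where 8.97% of all gene names were lower and 6.26% higher, 4 were lower and 2 higher. Their median was -0.54, with 19 below 0 and 3 above, against -0.10 for the 8 sterol genes, a difference of -0.44. That difference rested on the array of replicate 2. Per array the fatty acid median was 0.12, -1.46, -0.21 and -0.31, the sterol median 0.025, -0.37, -0.054 and -0.19, and the difference 0.099, -1.09, -0.16 and -0.13. Without replicate 2 the fatty acid median was -0.053, the sterol median -0.025 and the difference -0.028. Without replicate 1 the fatty acid median was -0.78 and the difference -0.63. With all kept probes of a gene averaged, the fatty acid median was -0.41, the sterol median -0.10 and the difference -0.31. The labels give no reason to set replicate 2 apart.

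On the array of replicate 2, 13 of 22 fatty acid genes were below -1, and 2 of 8 sterol genes were, Insig1 and Fdft1. On the arrays of replicates 1, 3 and 4, 0, 3 and 2 of the 22 were. The lowest ratio of 18 of the 22 was on replicate 2. Fasn, fatty acid synthase, was at 12.17, 14.17, 12.20 and 13.17 in WT and 12.69, 11.23, 11.96 and 12.72 in Ad/NICD. Its highest sample was WT replicate 2 and its lowest Ad/NICD replicate 2, and the other 3 pairs differed by 0.52, -0.23 and -0.45. The mean was -0.78 ± 0.57 (adjusted p = 0.577), and -0.054 without replicate 2. Acaca, acetyl-CoA carboxylase, had -0.56 ± 0.42 and levels with the same 2 extremes (15.45 and 13.31), with -0.039 without that pair. On the same array the sterol genes not yet named lay closer to 0, with Cyp51 at -0.084, Sqle at -0.14 Srebf2 at 0.079, Idi1 at -0.35, Hmgcs1 at -0.39 and Lss at -0.43.

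**Figure D4:**
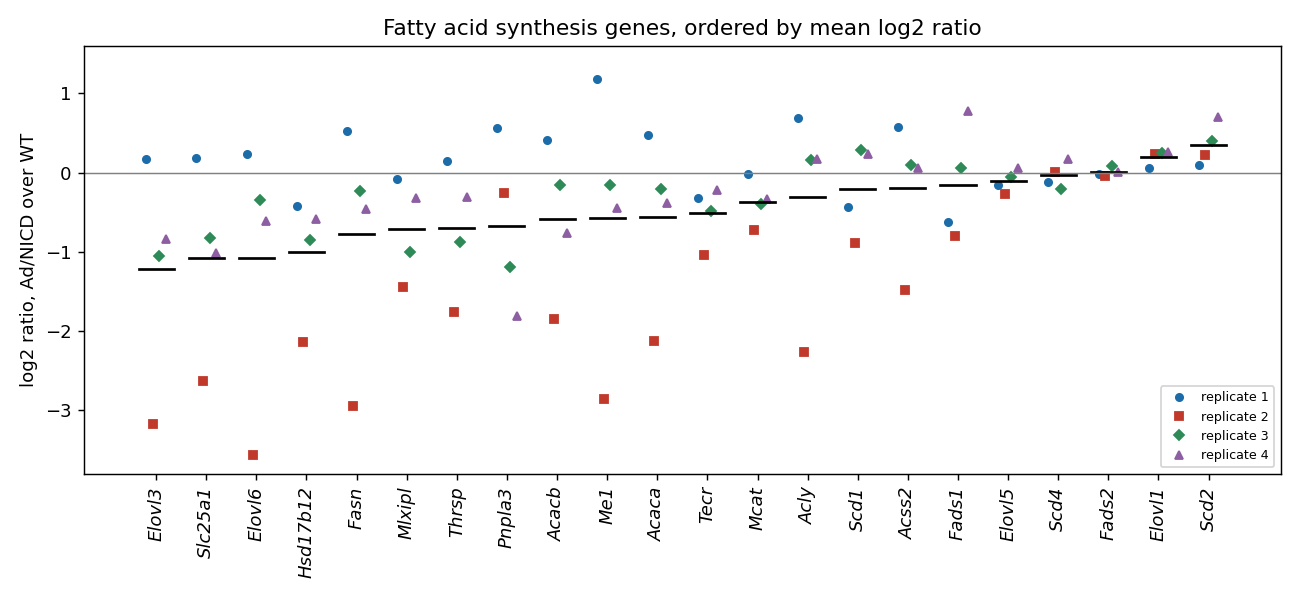
Log2 ratio of Ad/NICD over WT (vertical axis) on each of the 4 arrays for the 22 genes of fatty acid synthesis (horizontal axis), in order of their means (bars). The points of replicate 2 reach -3.56 for Elovl6, while those of replicate 1 lie above 0 for 13 of the 22.

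The 3 lower genes among the 4 smallest p-values of the list kept their sign without replicate 2. Tecr, a reductase of the elongation cycle, had -0.51 ± 0.15 (adjusted p = 0.222), Hsd17b12, a ketoreductase of that cycle, -1.0001 ± 0.30 and Mcat, a mitochondrial acyltransferase, -0.37 ± 0.12; each was below 0 on 4 of 4 arrays, and without replicate 2 they had -0.34, -0.62 and -0.25. Elovl3, an elongase of very long chains, had the lowest mean, -1.22 ± 0.53, which was -0.57 without replicate 2 and -1.97 with the scanner's processed signals. Scd2, a desaturase, had the highest, 0.35 ± 0.11 (adjusted p = 0.254), above 0 on 4 of 4 arrays. Under median centring Scd2 had -0.063, which lay 0.26 above the median of all gene names there. Scd1, the main desaturase of fat, had -0.20 ± 0.22, and 0.027 without replicate 2. In bulk tissue, fewer cells of a type and less RNA per cell cannot be told apart for any of these genes.

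**Figure D5:**
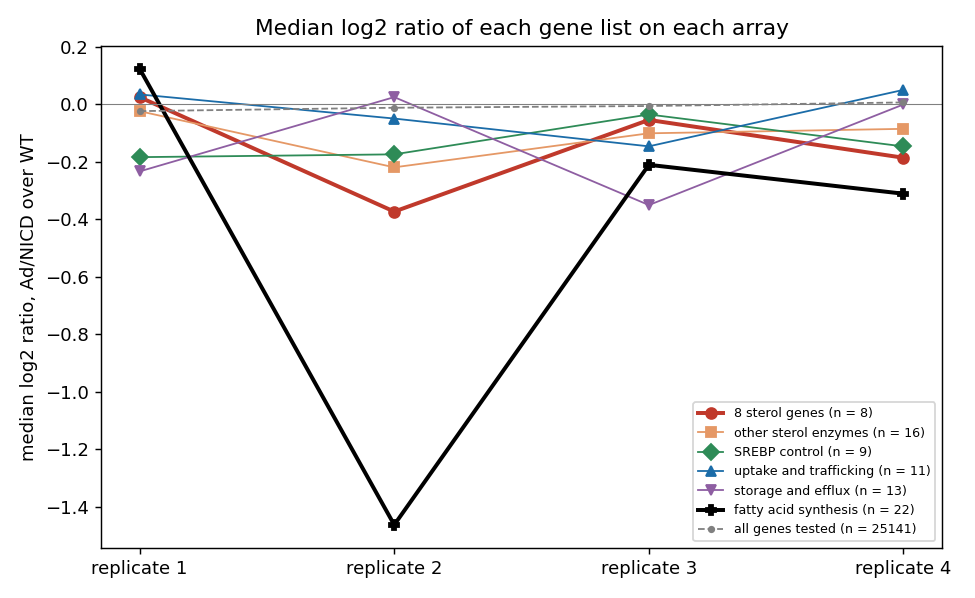
Median log2 ratio (vertical axis) of each gene list on each array (horizontal axis; the arrays have no order), with the number of genes measured in brackets. The fatty acid list is at -1.46 on the array of replicate 2 and between -0.31 and 0.12 on the 3 others, and the 8 sterol genes are at -0.37 and between -0.19 and 0.025.

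Markers of cell types that the tissue could hold are given beside the sterol values, as the log2 of their summed linear signals. The brightest probes therefore weigh most in each sum. All 10 adipocyte markers were measured, and 0 passed the threshold in limma. At an unadjusted p under 0.05, 8 of 10 were lower, against 8.97% of all gene names. The sum of the 10 markers was 17.92 to 18.41 in WT and 16.84 to 17.77 in Ad/NICD, lower in Ad/NICD on 4 of 4 arrays. Skeletal muscle markers (10 of 10 below 0) summed to 11.33 to 17.13 in WT and 10.30 to 13.12 in Ad/NICD, also lower on 4 of 4 arrays. Endothelial markers (8 of 8 below 0) had 14.34 to 14.45 in WT and 13.68 to 14.18 in Ad/NICD. Macrophage markers, with 5 above and 5 below 0, had 14.71 to 15.23 in WT and 14.63 to 15.25 in Ad/NICD, and lymphocyte markers 14.73 to 15.55 in WT and 14.88 to 15.13 in Ad/NICD. On the arrays of replicates 1 to 4, the adipocyte sum differed by -0.69, -1.29, -1.57 and -0.15, and the muscle sum by -1.06, -2.52, -0.92 and -4.01. The epithelial sum differed by -0.85, -1.07, 0.20 and 0.18, and the sebocyte sum by 0.42, -1.44, -0.38 and -0.20. The difference was largest on replicate 3 for adipocyte markers, on replicate 4 for muscle and on replicate 2 for epithelium and sebocytes. The sebocyte markers did not move together, with 2 above and 4 below 0. Cidea, the brightest of them in WT replicate 2 at 15.82, had a ratio of -1.80 on that array. Krt79 had 0.50 there and was above 0 on 4 of 4 arrays, so the sum is not read as an amount of sebocytes. Sebocyte markers had 15.33 to 16.61 in WT and 15.17 to 15.84 in Ad/NICD and hepatocyte markers 12.67 to 13.08 in WT and 11.55 to 12.48 in Ad/NICD. Of cells that use or make much cholesterol, steroidogenic markers summed to 12.49 to 13.02 in WT and 12.43 to 12.81 in Ad/NICD. Most of that sum was Fdx1, at 12.17 to 12.76 in WT. Cyp17a1 and Mc2r were at 8.66 to 9.12 in WT and Star at 6.46 to 6.54. The steroidogenic markers did not move together, with 3 above and 3 below 0. Mc2r had a mean ratio of -0.89 and was below 0 on 4 of 4 arrays, while Star had -0.027 and Cyp17a1 0.20. Cyp11a1 was well above background in 1 WT and 2 Ad/NICD samples, and Hsd3b1 and Cyp11b1 were too dim to be tested. The hepatocyte markers Apoa1, Ttr and Cyp7a1 and the sebocyte markers Awat1 and Awat2 were too dim as well. The part of these cell types in the sterol values was not tested.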

How the data were processed

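2-colour Agilent arrays were read with Agilent Feature Extraction 11.5, per the submitters' processing notes. The deposited scanner tables, per the file headers, hold intensity values (foreground, background, background-subtracted and processed signals) and a log10 ratio of red over green. The authors' deposited value table is on a log2 scale; each column equalled the log2 processed signal of 1 channel minus a constant, and column medians were -3.84 to -3.52. How it was made is not stated by the sources at hand. Both scanner tables of a replicate number were identical, so each array was read once.

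Median signals were background-corrected by normexp (offset 50) and loess-normalised within arrays with control spots at weight 0 (limma 3.58.1, R 4.3.3). Of 55681 probes, 28026 took a RefSeq symbol through their accession (GRCm38.p6, names only), and the 27655 others go by the files' own name. A probe was kept if, on 3 or more of 4 arrays, either channel was well above background (34468 probes); replicate 1 has no such flags, so they were rebuilt as 6 median absolute deviations of 308 negative controls, which matched 98.3% to 99.99% of flags elsewhere. The brightest kept probe stood for a gene. Log2 ratios were tested against 0 with lmFit and eBayes, with Benjamini-Hochberg adjustment over 25141 gene names; levels are single channels after Aquantile scaling. The array pairs the samples, whose deviations from group means correlated at 0.18, 0.17, 0.56 and 0.53 for replicates 1 to 4. Samples of unlike number correlated at -0.53 to 0.28. The highest of these, WT replicate 1 with Ad/NICD replicate 3, exceeded the values of pairs 1 and 2. The consensus correlation of the random array block was 0.16. P-values of the ratio fit set the mean of the 4 ratios against their spread between arrays, which eBayes moderates over genes. The fit was tested on simulated data.

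Members and lists were chosen with earlier results of these data known. Of each further list, the text names genes with the 4 smallest p-values, the highest and lowest means, and Srebf1, Fasn, Acaca and Scd1, leaving out some genes that are not reported here though list counts and medians include them. The 14 alternatives are described in the closing section.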

Additional observations from a re-analysis of the deposited data

Results flagged for a closer look

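In 30 groups of 4 values (levels of the 8 genes in each genotype, their ratios, and list medians per array), 2 held a sample far from the others by Dixon's criterion, where chance gives about 1 in 20 groups. Both concern Sqle. Its level in WT replicate 4 was 9.85, against 9.57 to 9.61 in the 3 other WT samples. Its ratio on the array of replicate 3 was 0.28, against -0.19 to -0.11 on the 3 others.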

How the results depend on the processing

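The 14 alternatives left the count of called sterol genes at 0 of 8. The count of all gene names called moved from 12 (7 higher and 5 lower) to 3 with the scanner's processed signals and with the authors' value table, to 0 with median centring, without the filter on dim probes and with eBayes trend and robust settings, to 0 without replicate 1, 2 or 3 in turn, and to 43 (9 higher and 34 lower) without replicate 4. It was 259 with no replicate block and 503 with the array as a random replicate block, and 0 of the 8 genes changed call under either. With median centring the median of the 8 sterol genes was -0.56 and that of the other enzymes -0.49, where the median of all gene names was -0.32. Leaving out each replicate gave medians of -0.15 to -0.025 for the 8 genes, -0.13 to -0.088 for the other enzymes, -0.78 to -0.053 for fatty acid synthesis, and -0.63 to -0.028 for the difference. Signs turned for Srebf2 under median centring (-0.41) and without replicate 1 (leave-one-out range -0.0066 to 0.18), and for Sqle without replicate 1 (0.010). They turned for Idi1 with processed signals (0.072), in the authors' table (0.063) and without replicate 2 (0.032). Srebf1 turned in the same 3 settings (0.016, 0.0064 and 0.17; leave-one-out range -0.27 to 0.17). Median centring turned Msmo1 (-0.37) and Scd2 (-0.063). Measured from the median of all gene names under that centring (-0.32), Msmo1 lay at -0.047, Srebf2 at -0.091 and Scd2 at 0.26. Scd1 turned without replicate 2 (0.027). The cause of these turns was not tested. Dim probes limit what can be seen of Cyp51 and Lss, whose ratios the offset compresses.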
